A study of Mus musculus with 34 samples.

Results

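The mitochondrial ribosomal proteins were taken as all genes whose symbol begins with Mrpl or Mrps followed by a digit, which gave 72 of the 9851 genes listed in at least 1 of 3 deposited expression tables. By symbol, 47 of them belong to the large subunit (Mrpl) and 25 to the small subunit (Mrps), although the products of Mrps18a and Mrps30 are placed in the large subunit in structures of the mammalian mitochondrial ribosome. Mrpl58 was listed in the neutrophil table, and the other tables list it under its older symbol, Ict1. A filter on low values left 61 of 68 listed members in the rescue table, 63 of 69 in the first table and 66 of 69 in the neutrophil table, and 60 were tested in all 3.

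Polyadenylated RNA came from macrophages sorted out of the colonic lamina propria of C57BL/6 mice, gated as CD45+, CD11b+, intermediate for CD11c, CD64+, and negative for Ly6c and CD103. In mice marked IL10R the macrophages lack the alpha chain of the IL-10 receptor, according to the title of the series. The driver of the deletion, the meaning of CX and CXhet and the genotype of the littermates are not stated in the labels. The titles of all IL10R, IL10R_P19 and IL10R_abx libraries of the rescue table also carry 5C5, which those of CX and littermate_abx do not and the labels do not explain, so whatever it stands for cannot be told apart from the deficiency there. The rescue table holds mice of 6 to 7 weeks: 5 libraries titled IL10R, 4 titled IL10R_P19 (P19 was read as the IL-23 subunit p19), 4 titled IL10R_abx, 2 titled CX and 3 titled IL10R_littermate_abx, called littermate_abx here. For IL10R_abx and littermate_abx the labels give antibiotics in the drinking water and do not name them, and for the other groups of that table they give no treatment. Mice of the same age, with no treatment given, make up the first table: 3 CXhet and 3 IL10R libraries. Bone marrow chimeras, sampled 4 weeks after chimerism was set up, make up the neutrophil table: 4 wt, 3 ko_igg and 3 ko_ly6g libraries. The treatment label of that table gives anti-Ly6g antibody to every library, which contradicts the titles wt and ko_igg, and groups were taken from the titles. In these, ko was read as the same deficiency of the IL-10 receptor and igg as a control antibody. The title wt names no antibody, so genotype and antibody cannot be told apart in comparisons with wt. Host cells that remain in a chimera were not measured separately.

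Mitochondrial ribosomes translate the few proteins encoded by mitochondrial DNA, all of them core subunits of the respiratory chain and ATP synthase. Their proteins are encoded in the nucleus, made in the cytosol and imported, and they join ribosomal RNAs transcribed from mitochondrial DNA. They descend from bacterial ribosomes, so some members have a direct bacterial counterpart and others exist only in mitochondria. In macrophages, oxidative metabolism is known to shift with the state of activation.

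Because members of 1 complex moved together below, sequence from just upstream of their start sites is shown for 6 of them. Promoters of 63 members were found in the RefSeq table of build GRCm38.p6. Of these, 23 (36.5%) held the letters CCGGAAG, the core bound by ETS factors such as GABPA, against 9.93% of all 27025 genes with a promoter and 21.0% of the genes listed in the rescue table. The NRF-1 core GCGCATGC was found in 7 (11.1%, against 3.05% and 6.01%), the YY1 core AAGATGGCG in 8 (12.7%, against 1.64% and 4.09%) and the E-box CACGTG in 4 (6.35%, against 8.09% and 12.5%). The window searched reached from before the start site to a short way past it, so some counted matches do not lie wholly before it. The 6 stretches shown do. Both strands were searched, the motifs do not contain one another, and a match is a description of letters in this window, not a bound site. The stretches read 5′ to 3′ on the strand of the gene, with the match in capitals (a match on the other strand appears as its reverse complement). Mrpl10 and Mrpl9 show NRF-1, Mrpl43, Mrps16 and Mrpl3 show ETS, and Mrps11 shows YY1.
Mrpl10 (chr11:97041422-97041481, plus strand): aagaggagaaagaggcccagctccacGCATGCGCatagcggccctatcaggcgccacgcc
Mrpl9 (chr3:94443282-94443335, plus strand): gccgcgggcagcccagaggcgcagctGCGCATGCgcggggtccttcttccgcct
Mrpl43 (chr19:45006466-45006524, minus strand): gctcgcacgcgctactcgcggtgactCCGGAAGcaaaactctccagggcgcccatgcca
Mrps16 (chr14:20393532-20393590, minus strand): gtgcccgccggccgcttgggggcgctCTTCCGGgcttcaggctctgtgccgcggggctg
Mrpl3 (chr9:105053223-105053267, plus strand): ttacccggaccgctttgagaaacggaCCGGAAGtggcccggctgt
Mrps11 (chr7:78782997-78783057, plus strand): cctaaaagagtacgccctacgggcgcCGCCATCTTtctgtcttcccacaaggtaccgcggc

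Each deposited value is a read count scaled by a factor of its library, so it is comparable within a table and not between tables. Changes are differences of log2(value + pseudocount), with the standard error (SE), and a gene was called where the limma test across all genes of its table gave a Benjamini-Hochberg adjusted p under 0.05. Nothing in the labels says whether each library is a separate animal, and the p-values then measure only the spread between libraries, which may be technical. In bulk RNA, fewer cells of a type and less RNA per cell cannot be told apart. Reads of listed genes ran from 747046 to 2775974 per library in the rescue table, and the 3 shallowest libraries there were IL10R_abx. Il10ra, the gene targeted in IL10R mice, was at 1.70 to 31.2 in the 13 IL10R, IL10R_P19 and IL10R_abx libraries of the rescue table, against 138 to 191 in littermate_abx and 248 and 284 in CX. In the first table it was at 371 to 689 in CXhet and at 9.26 and 65.9 in IL10R libraries 1 and 3, but at 361 in the library labelled IL10R 2. In the neutrophil table it was at 247 to 827 in wt, 77.9 to 111 in ko_igg and 32.2 to 65.1 in ko_ly6g. Of 15 macrophage markers 13 were listed in every table, and so were all 18 epithelial markers, which the CD45+ gate would remove, with Epcam at 173 to 3172.

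Antibiotic treatment of IL10R mice came with lower mRNA of mitochondrial ribosomal proteins of both subunits. In IL10R_abx against IL10R, 43 of 61 tested members fell and none rose, where 27.3% of all 6612 tested genes fell and 30.6% rose (36.2% and 23.2% with libraries scaled to equal totals). By subunit, 27 of 41 large and 16 of 20 small members fell. The median change of the members was -0.61 on the log2 scale (-0.53 for large, -0.63 for small), against 0.03 for all tested genes, and all 61 estimates were below 0. In 33 of 61 every IL10R_abx library was below every IL10R library, beside 19.5% of all genes. The 43 calls ranged from -1.26 for Mrps6 to -0.36 for Mrpl41. Of the 7 listed members below the filter, tested without it, Mrpl47, Mrps2, Mrps27 and Mrps31 fell as well. They fell by 0.97, 0.70, 0.99 and 0.82 on the log2 scale. Mrpl50, Mrps22 and Mrps5 stood at -0.48, -0.57 and -0.37 without passing the test. The share of all genes called in the fit without the filter is not given.

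**Figure D1:**
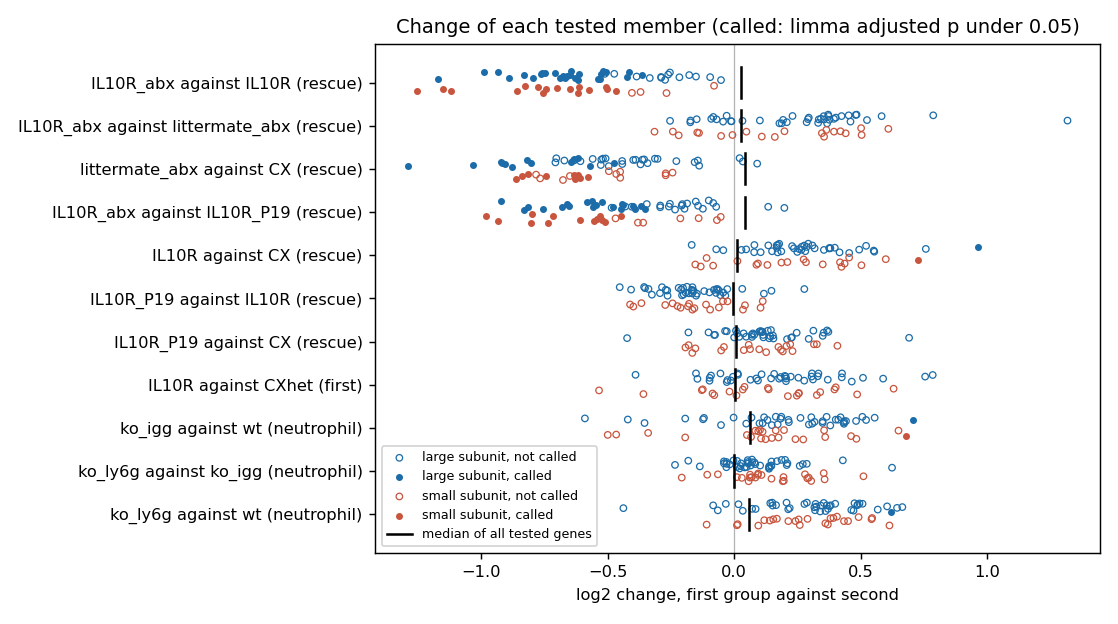
Log2 change of each tested member (x axis) in the 11 comparisons between title groups (y axis, table in brackets), large subunit in blue and small in red. Filled circles passed the limma test (adjusted p under 0.05), and the black line is the median of all tested genes. In the 3 comparisons of antibiotic with untreated groups nearly all members lie left of that line, with 43, 22 and 33 called lower and none higher. The groups of the comparison with IL10R_P19 also differ in P19 by title.

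Of the large subunit, Mrpl12 and Mrpl10 form the stalk that recruits translation factors, as L7/L12 and L10 do in bacteria. Mrpl12 was at 518, 485, 391, 441 and 392 in IL10R and at 257, 184, 170 and 184 in IL10R_abx. Every antibiotic library lay below every untreated one, and IL10R_abx_160 was the highest of its group. The change was -1.17 (SE 0.14, adjusted p = 1.13e-06 by limma).

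Mrpl10 was at 137, 189.8, 129.6, 118 and 144 in IL10R and at 76.2, 77.1, 83.1 and 60.5 in IL10R_abx, with no overlap. It changed by -0.93 (SE 0.17, limma adjusted p = 8.27e-05). Mrpl46, a protein found only in mitochondrial ribosomes, went from 140.4 ± 20.3 (SD, n = 5) to 72.3 ± 21.7 (SD, n = 4), a change of -0.99. Mrpl42, also specific to mitochondria, went from 140.2 ± 15.9 to 82.3 ± 34.7, a change of -0.89, and its lowest library was IL10R_abx_160 at 32.6. None of these overlapped between the groups. The exons of Mrpl46 overlap those of Mrps11 on the opposite strand, and whether the authors' counting used strand is not given in the sources used here, so their reads may be shared. The same holds for Mrpl43, Mrpl44 and Mrpl9, which overlap Twnk, Wdfy1 and Oaz3 on the opposite strand, and for Mrps6, Mrps24 and Mrps34, which overlap Slc5a3, Urgcp and Nme3 on the same strand.

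Among the 20 small subunit members past the filter Mrps6, Mrps35, Mrps10 and Mrps11 had the largest falls, and here and in the comparisons that follow the largest changes are given per subunit among members past the filter. Mrps6, the counterpart of bacterial S6, was at 242, 314, 300.3, 279 and 285 in IL10R and at 122, 199, 89.9 and 88.4 in IL10R_abx. The groups did not overlap, and IL10R_abx_161 came closest to the untreated libraries. The change was -1.26 (SE 0.21, limma adjusted p = 4.47e-05).

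Mrps35, which has no bacterial counterpart, was at 270.5, 314, 249.6, 260.5 and 299 in IL10R and at 155, 141, 106.8 and 104 in IL10R_abx. All treated libraries were lower, and the change was -1.15 (SE 0.15, limma adjusted p = 1.62e-06). Mrps10 and Mrps11, counterparts of bacterial S10 and S11, went from 72.2 ± 5.79 to 34.8 ± 14.3 and from 108.6 ± 18.4 to 63.6 ± 27.1 (SD, n = 5 and 4), changes of -1.12 and -0.86. Mrps12, the counterpart of S12 of the decoding centre, went from 170.3 ± 8.34 to 101.9 ± 20.6, a change of -0.75. Mrps16 (-0.62) and Mrps34 (-0.57), a protein specific to mitochondria that is needed for a stable small subunit, also fell, each with no overlap.

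**Figure D2:**
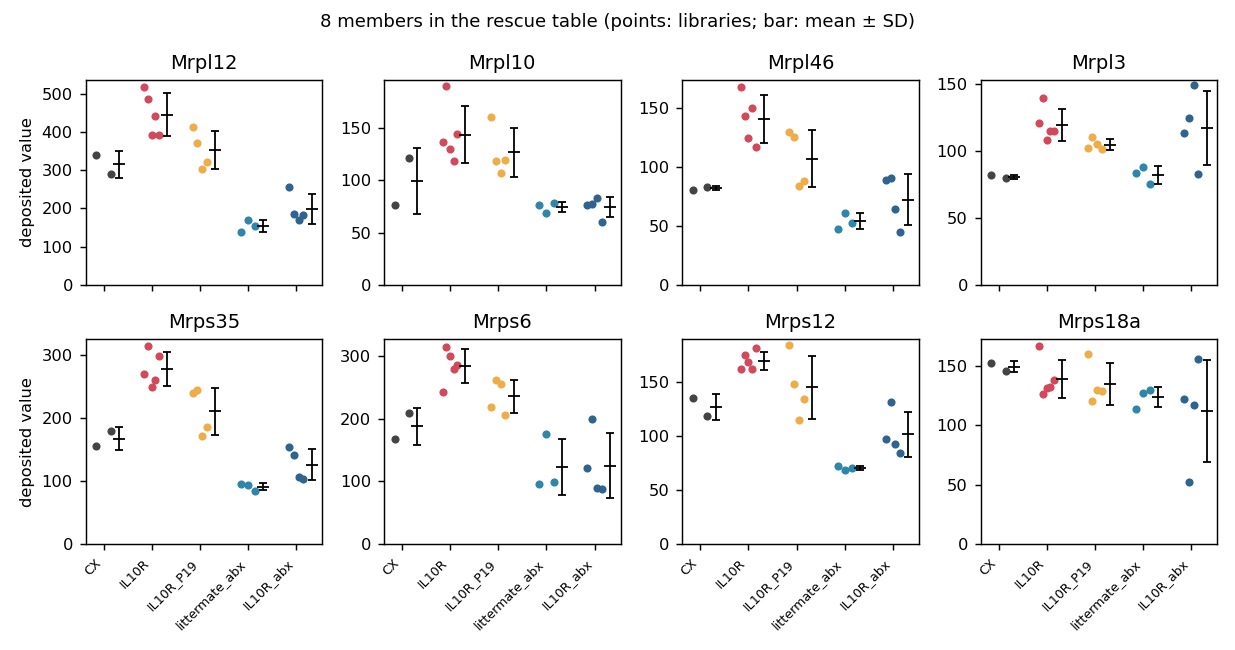
Deposited values (y axis, from 0) of 8 members in the 18 libraries of the rescue table, by group. Points are libraries and bars are the mean ± SD. Mrpl12, Mrpl10, Mrpl46, Mrps35, Mrps6 and Mrps12 lie lower in IL10R_abx than in IL10R without overlap, while Mrpl3 and Mrps18a overlap.

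Some members did not pass this test. Mrpl3, a large subunit protein with a bacterial counterpart, was at 121, 139, 108, 115 and 115 in IL10R and at 113, 124, 149 and 82.6 in IL10R_abx. The treated libraries spanned the untreated ones, and the change was -0.05 (SE 0.14, limma adjusted p = 0.78), turning to 0.10 without IL10R_abx_497 and to 0.003 without IL10R_32. Mrpl44, which carries a fold of the ribonuclease III family, was at 102, 73.3, 37.3 and 32.7 in IL10R_abx and at 58.3 to 83.2 in IL10R. Of the treated libraries 1 lay above the untreated range, 1 inside it and 2 below it, with a change of -0.29 (SE 0.26, limma adjusted p = 0.36). Mrps18a, an S18 paralog, was at -0.40 (limma adjusted p = 0.11), with IL10R_abx_161 at 52.7 and the other treated libraries at 117 to 156. The paralogs Mrps18b and Mrps18c were not analysed here.

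The littermate comparison used other libraries and gave lower values as well. In littermate_abx against CX, 22 of 61 members fell (13 large, 9 small) and none rose, where 17.5% of all tested genes fell and 16.5% rose (21.5% and 11.7% with equal totals, where 37 members fell). The median change was -0.56 (large -0.52, small -0.62), against 0.04 for all genes, and 58 of 61 estimates were below 0. In 49 of 61 all treated libraries were below both CX libraries, beside 29.1% of all genes. With 3 and 2 libraries the count was unsteady: it was 8 without CX_1, 16 without CX_3 and 17 without littermate_abx_490. The genotype of both groups is not stated, so antibiotics and any difference between littermates and CX mice cannot be told apart.

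Mrpl12 was at 138, 169 and 153 in littermate_abx and at 341 and 289 in CX, a change of -1.03 (SE 0.20, limma adjusted p = 0.000518). The treated libraries were all lower. Mrpl44, uncalled in IL10R mice, was at 17.6, 29.8 and 18.97 against 53.9 and 54.1, and had the lowest estimate of any member in this comparison at -1.29 (SE 0.35, limma adjusted p = 0.00804). Mrpl43 and Mrpl57, both specific to mitochondria, changed by -0.92 and -0.92. Among small subunit members Mrps35 went from 167.9 ± 17.8 (SD, n = 2) to 91.7 ± 5.52 (SD, n = 3), Mrps12 from 127.3 ± 11.8 to 70.6 ± 1.60, Mrps24 from 302.6 ± 17.3 to 172.7 ± 27.9 and Mrps34 from 113.9 ± 16.1 to 67.3 ± 1.92. Their changes were -0.86, -0.84, -0.82 and -0.74, and Mrps16 changed by -0.62. Mrpl3 stood at 0.02, a sign that turned under 5 of the alternatives, Mrps18a at -0.27 and Mrps22, tested without the filter, at -0.70, all uncalled. Of the 43 members lower in IL10R_abx against IL10R, 19 (44.2%) were also among the 22 (86.4%) lower in littermate_abx against CX. For all tested genes 1060 were in both, 58.8% of 1803 and 91.7% of 1156.

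Against IL10R_P19, which shares the IL10R_abx libraries with the first of these comparisons, 33 of 61 members were lower (20 large, 13 small) and none higher, beside 22.4% and 25.8% of all tested genes (29.7% and 19% with equal totals). The median change was -0.44 (large -0.39, small -0.53), against 0.04 for all genes. By title these groups differ in P19 as well as in antibiotics, and the part of each cannot be told apart. In 24 of 61 the libraries did not overlap, IL10R_abx being lower, beside 19.1% of all genes. Mrpl42 was at 177, 113, 128 and 160.5 in IL10R_P19 and at 32.6, 109, 84.8 and 103 in IL10R_abx, a change of -0.92 (SE 0.27, limma adjusted p = 0.00789). The 2 groups came close without overlapping. The next large changes were those of Mrpl12 (-0.83), Mrpl9 (-0.82, the counterpart of bacterial L9) and Mrpl10 (-0.75). Among small subunit members past the filter they were those of Mrps6 (-0.98), Mrps10 (-0.93), Mrps26 (-0.80) and Mrps11 (-0.80), and Mrps27, tested without the filter, was lower at -1.03.

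**Figure D3:**
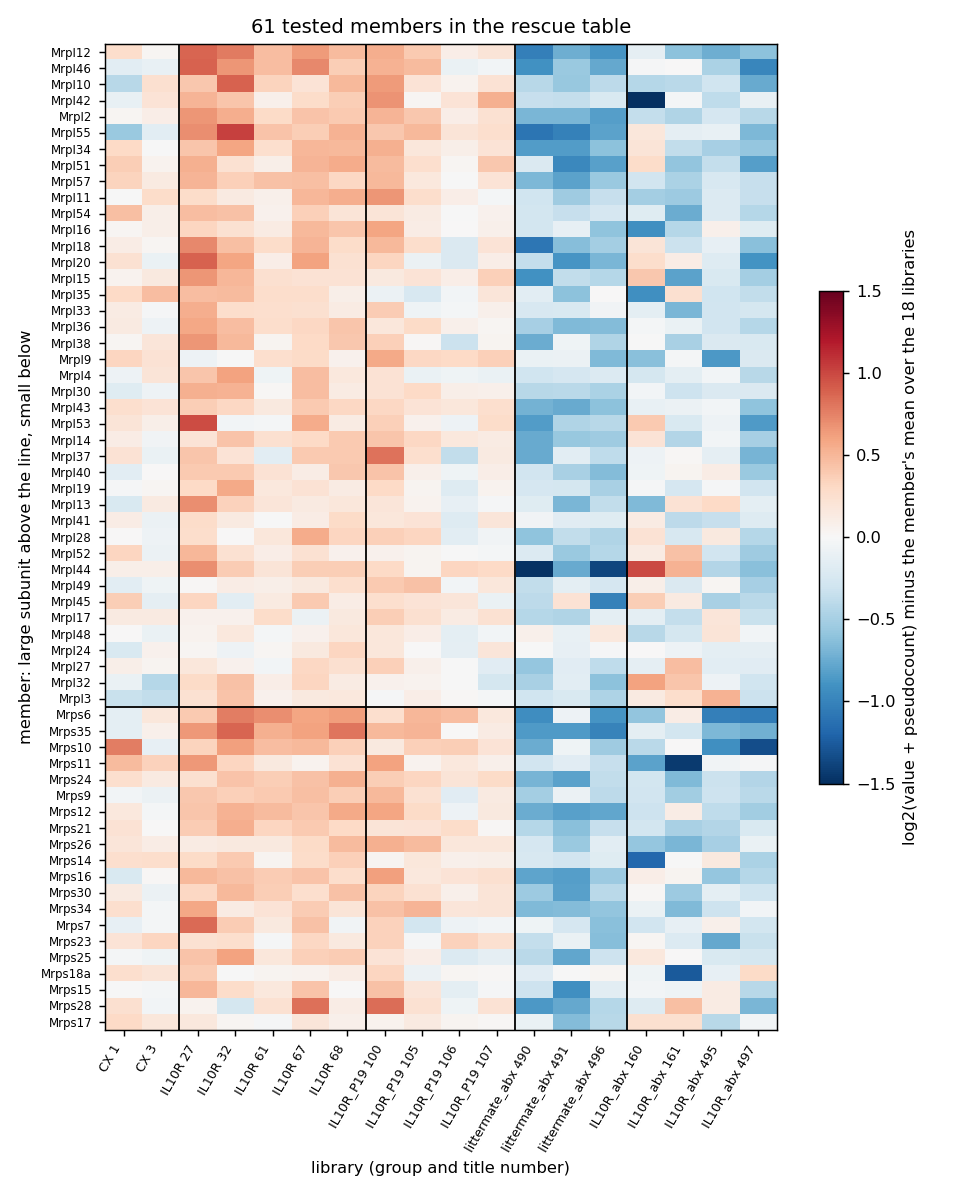
The 61 tested members (rows, large subunit above the line and small below, each ordered by change in IL10R_abx against IL10R) in the 18 libraries of the rescue table (columns, grouped by title). Colour is log2(value + pseudocount) minus the member's mean over the libraries, from blue (lower) to red (higher). Most cells of the 7 antibiotic libraries are blue and most of the 5 IL10R libraries are red, while Mrpl44 and Mrpl32 differ among the IL10R_abx libraries.

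Averaged over all 61 tested members, the mean log2 value was 6.45 to 6.73 in IL10R_abx and 6.37 to 6.41 in littermate_abx. It was 6.91 and 6.96 in CX, 6.90 to 7.23 in IL10R_P19 and 7.06 to 7.30 in IL10R. The 7 antibiotic libraries thus lay below the 11 others without overlap, while the mean of all tested genes stayed at 6.78 to 6.85 in both sets. All listed members together made up 0.363 to 0.470% of the listed values in antibiotic libraries and 0.590 to 0.784% in the others. The large minus small difference in mean log2 was 0.05 to 0.27 in antibiotic libraries and 0.00 to 0.16 in the others, so the ranges overlapped.

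**Figure D4:**
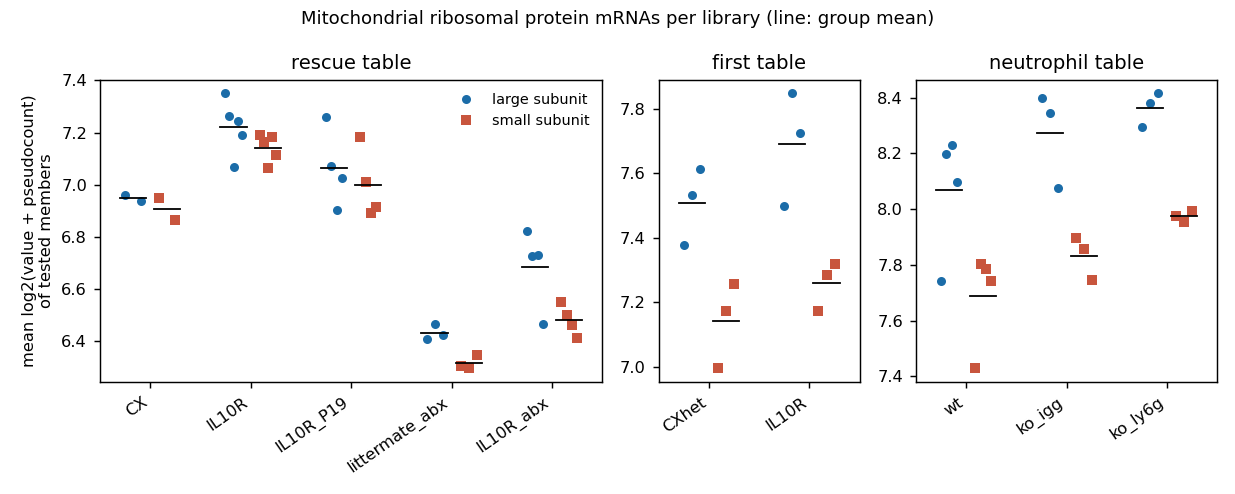
Mean log2(value + pseudocount) of the tested large subunit members (blue circles) and small subunit members (red squares) per library in the 3 tables, with group means as lines. The y axes differ, since the tables were normalized separately. In the rescue table the antibiotic groups lie lowest for both subunits, and in the neutrophil table wt 1 stands below the other libraries.

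The same 2 comparisons held other genes of mitochondrial translation in smaller numbers. Of 5 tested mitochondrial ribosomal proteins under other symbols, 4 fell in IL10R_abx against IL10R (median -0.65), among them Ict1 (-0.76), Dap3 (-0.65) and Gadd45gip1 (-0.77), and 2 in littermate_abx against CX. Of 6 translation factors 3 fell in the first of these: Tufm (-0.99), the elongation factor that brings tRNA to the ribosome, Mtif3 (-0.83), an initiation factor, and Gfm1 (-0.87), an elongation factor. Of 8 assembly and ribosomal RNA modification genes 1 fell (Mpv17l2, -0.74) and 2 rose (Rbfa, 0.66, and Rpusd4, 0.46). Of 6 mitochondrial tRNA synthetases 2 fell, and of 2 genes that transcribe or maintain mitochondrial DNA 1 fell (Tfam, -0.64). None of these last 3 lists had a call in littermate_abx against CX, while 2 of the 6 translation factors, Tufm (-0.79) and Mtif3 (-0.76), fell there. Of all tested genes 27.3% fell and 30.6% rose in IL10R_abx against IL10R. In littermate_abx against CX these shares were 17.5% and 16.5%. Whether such small lists differ from these shares was not tested.

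Subunits of the respiratory chain and ATP synthase, the complexes that the products of mitochondrial translation join, fell in 70 of 76 tested cases in IL10R_abx against IL10R (median -0.82) and in 61 of 76 in littermate_abx against CX (median -0.80). Uqcr10 of complex III changed by -1.43 and -1.19. Of the cytosolic ribosomal proteins, 9 of 68 fell and 3 rose in the first comparison (median -0.16), and 1 of 68 fell and 1 rose in the second (median -0.14). Of 5 nuclear regulators of mitochondrial genes, Esrra (-0.90) and Ppargc1b (-1.07) fell and Gabpa (0.56), a subunit of the ETS factor whose core is shown above, and 1 other rose in IL10R_abx against IL10R. In littermate_abx against CX 1 of the 5 fell, Ppargc1b (-0.98), and none rose. In IL10R_abx against IL10R the 18 tested members with the ETS core had a median change of -0.57, and the 34 without it -0.62. For NRF-1 the medians were -0.54 (5 members) and -0.62 (47). They were -0.64 (7) and -0.54 (45) for YY1, and -0.64 (4) and -0.58 (48) for the E-box.

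Markers of epithelial cells moved with these groups. All 18 epithelial markers fell in each of the 3 comparisons with IL10R_abx or littermate_abx as the treated group (medians -2.13, -2.20 and -1.89). Their summed share was 0.302 to 0.542% of listed values in the 7 antibiotic libraries and 1.85 to 2.49% in the 11 others. The 13 macrophage markers tested all rose in IL10R_abx against IL10R (median 1.66), and their share was 4.21 to 5.66% in antibiotic libraries against 1.60 to 4.09% in the others. Immediate-early and dissociation stress genes took 2.89 to 4.22% against 0.981 to 2.34%, and in IL10R_abx against IL10R 21 of 23 rose and 1 fell.

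The 7 of 8 stromal and endothelial markers listed summed to 0.0270 to 0.0621% in antibiotic libraries and 0.0312 to 0.153% in the others, and none of the 7 T cell markers was listed. The 2 of 7 dendritic cell markers listed summed to 0.0121 to 0.0179% in antibiotic libraries and 0.00559 to 0.0113% in the others, without overlap. With the epithelial score of each library as a covariate, a fit added after seeing the data, no member was called in the 3 antibiotic comparisons, where 1.21%, 0.121% and 0.59% of all genes were called lower, and the medians were -0.91, -0.89 and -0.72. That fit inflates the variance of these contrasts 23.1, 15.4 and 19.9 times, since the score and the treatment move together, so the part of each in the members' change cannot be told apart. The part of the other marker shares in the members' change was not tested.

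**Figure D5:**
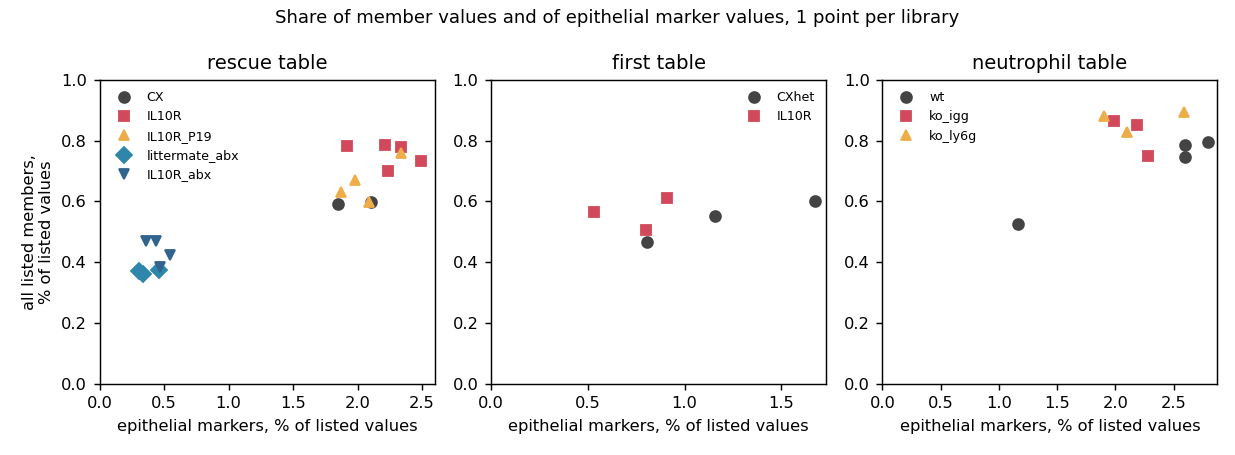
Share of listed values held by all listed members (y axis, percent) against the share held by 18 epithelial markers (x axis, percent), 1 point per library, in the 3 tables. In the rescue table the 7 antibiotic libraries form 1 cloud at low values of both and the 11 others a second one. In the neutrophil table wt 1 is low in both.

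Depth, length and level were also compared. With all rescue libraries thinned to 747046 reads, a setting added after seeing the data, 38, 16 and 27 members were lower in the 3 antibiotic comparisons, and none was higher. The share of all genes lower in that fit is not given, so these counts show only that the direction held. When tested genes were split into 4 equal bins by transcript length, the members' median change in IL10R_abx against IL10R was -0.53 to -0.63 in the 4 bins (33, 17, 5 and 6 members), while that of other genes ran from -0.10 for the shortest to 0.15 for the longest. In 4 bins by mean level it was -0.49 to -0.69 for members and -0.02 to 0.09 for other genes. Leaving out the members whose exons overlap another coding gene or that have a named pseudogene, 29 of 40 fell in IL10R_abx against IL10R (median -0.65), 14 of 40 in littermate_abx against CX and 22 of 40 in IL10R_abx against IL10R_P19. Of all tested genes 27.3%, 17.5% and 22.4% were lower in these comparisons.

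Of 61 estimates, 54 were higher in IL10R than in CX in the rescue table. In IL10R against CX, 2 of 61 members rose and none fell, beside 3.87% and 6.03% of all tested genes, with a median of 0.27 for the members and 0.01 for all genes. Mrpl55, specific to mitochondria, was at 95.3 and 126 in CX and at 229, 286, 189, 182 and 202 in IL10R, and rose by 0.96 (SE 0.21, limma adjusted p = 0.00803). Mrps35 was at 155 and 180.5 in CX, below all 5 IL10R libraries, and rose by 0.73 (SE 0.18, limma adjusted p = 0.0173). The count was 0 without CX_1, 1 without CX_3 and 4 without IL10R_68. It was 4 by edgeR, beside 4.98% of all genes higher, and 8 with libraries scaled to equal totals, beside 5.82% higher and 5.04% lower. In 25 of 61 members every IL10R library was above both CX libraries, beside 18.8% of all genes. In that comparison 11 of 13 macrophage markers were lower (median -1.06), and their part in it was not tested.

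Under antibiotics, 0 of 61 members were called by limma in IL10R_abx against littermate_abx, where 0.0151% of all genes were called higher and 0.0151% lower. At an unadjusted p under 0.05 there were 22 members, and edgeR called 0. For this and the later unadjusted counts the share of all genes at that threshold is not given. They are therefore not read as results about the members. The median change of the members was 0.29, and 7 members were called without IL10R_abx_497, a fit for which the share of all genes is not given. The 2 largest estimates per subunit were those of Mrpl44 (1.32, limma adjusted p = 0.16) and Mrpl55 (0.79), and of Mrps28 (0.61) and Mrps16 (0.50). In 13 members the groups did not overlap, IL10R_abx being higher, beside 4.82% of all genes. The difference between the deficiency changes with and without antibiotics, (IL10R_abx minus littermate_abx) minus (IL10R minus CX), was called for 0 of 61 members by limma and by edgeR, beside 0.106% of all genes higher and 0% lower, with 3 at an unadjusted p under 0.05. Its median was -0.02. The controls differ in name as well as treatment, so it is no clean test of an interaction. The 2 largest estimates per subunit were Mrpl44 at 1.00 and Mrpl10 at -0.56, and Mrps6 at -0.61 and Mrps17 at 0.55, none past the threshold.

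In IL10R_P19 against IL10R, 0 of 61 members were called by limma or edgeR, beside 1.92% of all genes higher and 0.514% lower, and 8 were lower at an unadjusted p under 0.05. The median was -0.17. Mrps35 (-0.41) was at 241, 245, 172 and 187 in IL10R_P19, below every IL10R library, with a limma adjusted p of 0.14. Mrpl20 stood at -0.45, Mrpl46 at -0.41 and Mrps25 at -0.40. In IL10R_P19 against CX, 0 of 61 were called by either tool, beside 0.0151% of all genes higher and 0.0151% lower, 1 at an unadjusted p under 0.05, and the median was 0.11. Mrpl55 at 0.69 and Mrpl35 at -0.42 were the largest among large subunit members there, and Mrps16 (0.41) and Mrps6 (0.33) among small ones past the filter, while Mrps27 and Mrps22, tested without it, stood at 0.48 and 0.39. Both comparisons share libraries with those above. Macrophage markers made up 1.93% of values in IL10R_P19_100 and 3.10 to 3.27% in the other IL10R_P19 libraries. They made up 1.60 to 2.28% in IL10R, and 4.09 and 3.81% in CX. Without IL10R_P19_100 the medians were -0.22 against IL10R and 0.03 against CX. The part of the macrophage share in these changes was not tested.

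In the first table, 0 of 63 members were called in IL10R against CXhet by limma or edgeR, beside 4.57% of all tested genes higher and 4.12% lower, and 6 were higher at an unadjusted p under 0.05. The median was 0.18, and 0.14 without the library labelled IL10R 2. Mrpl38 was at 104, 71.8 and 107.025 in CXhet and at 114, 239.6 and 144 in IL10R, without overlap, at a change of 0.75 (SE 0.30, limma adjusted p = 0.15). Mrpl13 stood at 0.78, Mrps14 at 0.63 and Mrps6 at -0.53. The library labelled IL10R 2 held the highest value of Mrpl13, Mrpl38 and Mrps14 and the lowest of Mrps6. Epithelial markers had a median change of -0.48 there and stress genes of -0.53, whose part was not tested.

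In the neutrophil table, ko_igg against wt gave 2 of 66 members higher and none lower, beside 5.73% and 3.46% of all tested genes, and edgeR on the 8 libraries with recovered reads called 0. Mrpl20, the counterpart of bacterial L20, was at 318, 453, 510.4 and 375 in wt and at 711, 751 and 551 in ko_igg, a change of 0.71 (SE 0.19, limma adjusted p = 0.0474). Mrps7, the counterpart of S7, was at 193, 232, 274 and 227 in wt and at 397, 386 and 327 in ko_igg, a change of 0.68 (SE 0.16, limma adjusted p = 0.0252). Neither overlapped, but the count fell to 0 without ko_igg 14, ko_igg 16, wt 2 or wt 4. With the epithelial covariate, added after seeing the data, 16 of 66 (24.2%) were higher, beside 17.8% of all genes, and with equal totals 1 was. The exons of Mrps7 overlap 2 genes on the opposite strand. The median was 0.18, against 0.06 for all genes, and 0.11 without wt 1. That library had 1028567 reads, epithelial markers at 1.17% of values against 2.60 to 2.80% in the other wt libraries, and macrophage markers at 6.43% against 2.22 to 2.64%. The macrophage share of the ko_igg libraries, 1.47 to 2.07%, was below that of every wt library, and its part in the members' values was not tested.

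The title ko_ly6g was read as neutrophil depletion by anti-Ly6g antibody, and whether neutrophils were depleted was not measured. In these sorted macrophages the 5 of 8 neutrophil markers listed summed to 0.00510, 0.0496 and 0.0497% of values in ko_ly6g. They summed to 0.0244, 0.0380 and 0.00820% in ko_igg. In ko_ly6g against ko_igg, 0 of 66 were called by limma or edgeR, as for all genes (0%), and 0 had an unadjusted p under 0.05. The median was 0.08, and the 2 largest estimates per subunit were Mrpl33 at 0.62 and Mrpl21 at 0.43, and Mrps21 at 0.51 and Mrps14 at 0.36. In ko_ly6g against wt, 1 of 66 rose and none fell, beside 2.99% and 1.35% of all genes, and edgeR called 0. This was Mrpl53, specific to mitochondria, at 262, 271, 293 and 259 in wt and at 435, 407 and 410.4 in ko_ly6g, a change of 0.62 (SE 0.14, limma adjusted p = 0.0326). It was called without wt 1 but in none of the other 6 fits that left out 1 library. Its exons overlap those of Gm42688 on the same strand, so its reads are uncertain, and none of the 44 members without such an overlap or a named pseudogene was called. With the epithelial covariate 14 of 66 (21.2%) were higher, beside 11.9% of all genes, and with equal totals 0 were. The macrophage share was 0.992 to 2.39% in ko_ly6g. The median was 0.32, and 0.21 without wt 1. The mean log2 value over all tested genes was higher as well, at 7.70 to 7.75 in ko_ly6g and 7.64 to 7.69 in wt. In 22 of 66 every ko_ly6g library was above every wt library, beside 13.8% of all genes.

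Levels of members were compared with one another per kilobase of transcript, and the highest and lowest named here were chosen on that scale after their values were seen. Whether reads per gene grow with transcript length in these libraries was not tested, so this order may come from the division by length. Mrpl52 was the highest large subunit member in all 3 tables, at 1946 (first), 601 (rescue) and 1716 (neutrophil) per kilobase. Mrps24 was the highest small subunit member in each, at 577, 277 and 722, though its overlap with a neighbouring gene on the same strand leaves its level uncertain. The lowest small subunit member was Mrps5 in each, at 19.03, 12.8 and 27.4. The lowest large subunit member was Mrpl35 in the first and neutrophil tables, at 14.5 and 16.5, and Mrpl47 in the rescue table, at 7.19. The members with the highest mean value before division by length stood at 542 per kilobase (Mrpl30, rescue table) and 658 (Mrpl12, neutrophil table), and those with the lowest at 15.4 (Mrpl50) and 32.4 (Mrps27) in the first table.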

How the data were processed

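The deposited values are signal values: reads per gene that the authors divided by 1 factor per library, read from the values, since 100% of those checked were whole multiples of 1 read within 0.01 read. For ko_igg 16 and wt 3 too few low values allowed this. Per the labels, mRNA was captured with oligo-dT beads and amplified by in vitro transcription, and per the submitters' processing notes bcl2fastq, HISAT 0.1.6, HOMER and mm9 were used. What each was used for, and whether counting used strand, is not given in the sources used here.

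Each table was fitted alone with limma 3.58.1 (R 4.3.3, trend and robust variances) on log2(value + pseudocount), with all its groups and pseudocounts of 1.31, 0.997 and 0.982 in the first, rescue and neutrophil table; this scale understates the changes of low genes. Genes in the lowest quartile of mean value were removed (up to 53.2, 40.4 and 68.0), leaving 6766, 6612 and 6594. The count test (edgeR 4.0.16, quasi-likelihood) on recovered reads called 3813 genes in IL10R_abx against IL10R, where limma called 3823. The limma fit was tried on simulated counts with the same dispersion for all genes. Fewer genes were changed there than were called in IL10R_abx against IL10R. That run did not cover edgeR or the epithelial covariate, and its outcome is not given here. Transcript lengths and overlaps came from GENCODE, and the files use an older build, so no coordinates of theirs are given.

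The members and lists were chosen with earlier results of these data known. Named per comparison were all called members, or the 4 per subunit with the largest change where over 8 were called, or the 2 largest per subunit where none was, then the highest and lowest by mean, and Mrpl12, Mrpl3, Mrpl44, Mrps12, Mrps16, Mrps22, Mrps34 and the Mrps18 paralogs. Other members were named as the extremes of a range, by level per kilobase, as below the filter, or beside an overlap. From the other lists up to 3 called genes were named.

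Alternatives were another pseudocount, no filter, limma without trend, edgeR, scaling to equal totals, each library left out and a replicate block, and, added after seeing the data, thinned reads and an epithelial covariate. No pair of libraries was as alike as counting noise alone would make them (smallest chi-square per degree of freedom 3.58).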

Additional observations from a re-analysis of the deposited data

Results flagged for a closer look

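In groups of 4 or 5 libraries, 9 values stood apart from the rest of their group by Dixon's test, which flags about 1 in 20 groups by chance, and 102 groups were tested. In the rescue table these were Mrpl12 in IL10R_abx, highest in IL10R_abx_160 at 257, Mrpl43 in IL10R_abx, lowest in IL10R_abx_497 at 146, Mrpl44 in IL10R_P19, lowest in IL10R_P19_105 at 52.3, Mrps11 and Mrps16 in IL10R_P19, highest in IL10R_P19_100 at 135 and 149.6, and Mrps18a in IL10R, highest in IL10R_27 at 166. In the neutrophil table wt 1 was lowest for the epithelial marker share (1.17%) and for Mrpl44 (74.4), and highest for Mrps14 (220.3).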

How the results depend on the processing

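The antibiotic comparisons are named here by their treated and control groups. With libraries scaled to equal totals, IL10R_abx against IL10R had a median of -0.81 (54 called), littermate_abx against CX -0.69 (37) and IL10R_abx against IL10R_P19 -0.61 (42), all calls lower, and the median of all genes moved to -0.17, -0.09 and -0.13. The same scaling called 8 members in IL10R against CX, 1 in ko_igg against wt and 0 in ko_ly6g against wt. EdgeR called 47, 33 and 35 members in the antibiotic comparisons, all lower (median -0.61 in littermate_abx against CX), 4 in IL10R against CX, and 0 in both wt comparisons, fitted on 8 libraries. The shares of all genes that edgeR called lower in the antibiotic comparisons are not given. With the epithelial covariate, added after seeing the data, 0 were called in the antibiotic comparisons (medians -0.91, -0.89 and -0.72), 16 in ko_igg against wt (24.2%, beside 17.8% of all genes higher) and 14 in ko_ly6g against wt (21.2%, beside 11.9%), and the large minus small medians were 0.054 in littermate_abx against CX and -0.091 in IL10R_abx against IL10R_P19. Thinned reads, also added, gave large minus small medians of 0.042 in littermate_abx against CX, 0.16 in IL10R against CX, -0.058 in IL10R_P19 against IL10R and -0.044 in the difference of deficiency changes. The causes were not tested.

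Signs turned under the covariate in IL10R_abx against IL10R for Mrps6 (1.64), Mrps10 (1.22) and Mrpl44 (1.82), against IL10R_P19 for Mrpl9 (1.28), Mrps6 (1.85) and Mrps10 (1.34), in littermate_abx against CX for Mrpl44 (1.03) and Mrps35 (0.032), and in IL10R against CXhet for Mrps6 (0.15). Mrpl3 in littermate_abx against CX turned to -0.037 by edgeR, -0.19 with the covariate, -0.11 with equal totals and -0.18 with thinned reads, and ran from -0.029 to 0.087 with 1 library left out. It ran from -0.18 to 0.10 in IL10R_abx against IL10R, and Mrps14 in ko_ly6g against ko_igg from -0.13 to 0.87. Over all alternatives the named members kept direction and call in 826 cases, lost the call in 52, gained it in 7 and turned sign in 18.

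With each library left out, members called, their median change and the large minus small median ran as follows. The shares of all genes called in these fits are not given, so the counts show only how steady they were. In IL10R_abx against IL10R they were 41 to 46, -0.62 to -0.55 and 0.052 to 0.17. In littermate_abx against CX they were 8 to 20, -0.55 to -0.52 and -0.012 to 0.15. In IL10R_abx against IL10R_P19 they were 25 to 36, -0.48 to -0.36 and 0.054 to 0.26. In IL10R_abx against littermate_abx they were 0 to 7, 0.18 to 0.36 and 5.7e-05 to 0.16. In IL10R against CX they were 0 to 4, 0.23 to 0.30 and -0.081 to 0.12. In ko_igg against wt they were 0 to 2, 0.11 to 0.31 and 0.052 to 0.19, and in ko_ly6g against wt 0 to 1, 0.21 to 0.38 and -0.017 to 0.063. In the difference of deficiency changes the large minus small median ran from -0.026 to 0.11, and no member was called there, in IL10R_P19 against IL10R or CX, in IL10R against CXhet or in ko_ly6g against ko_igg.

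Replicate numbers are shared only in the first table. Same-numbered libraries there deviated with correlations of -0.058, 0.15 and 0.35, and differently numbered ones with -0.30 to 0.15. So few values cannot decide whether the libraries are pairs, and the main fit did not take them as pairs. With the replicate block 1 of 63 members was called in the first table (Mrpl13, 0.78). The share of all genes called in that fit is not given, so this call is not read as a result about the members. The exons of Mrpl13 overlap those of Mtbp on the opposite strand.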
